A study of Mus musculus with 26 samples.

Results

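The 10 genes described here, Fgf4, Fgf15, Hbegf, Fgfr1, Fgfr2, Spry2, Spry4, Dusp4, Dusp6 and Dusp9, are ligands, receptors and feedback inhibitors of the FGF-ERK pathway. They were chosen by gene symbol. All 10 were present in each of the 6 deposited tables, among 25239 genes in each table of untreated cells and among the 12928 genes common to the 4 tables of treated cells. They were measured by RNA sequencing of 26 libraries of C57BL/6 mouse embryonic stem (ES) cells grown with serum on gelatin, of which some carried a knockout of Hmces (HMCES-KO) and the others were wild type (WT). HMCES is a protein that binds DNA at abasic sites.

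The untreated libraries came in a count table, with 2 libraries of a knockout line named KO7, 2 of a line named KO8 and 2 of WT, and in a TPM table, with 2 HMCES-KO and 2 WT libraries. The sources used here name no line for that HMCES-KO pair. Its columns are named K81 and K82, and whether the pair is of line KO8 is not stated. The WT columns beside that pair are named CCE, and whether these are the same WT cells as in the count table is not stated in the sources used here. The treated libraries came in 4 TPM tables, each with 1 library of line KO1, 1 of line KO2 and 2 of WT, taken after a treatment of 2 h. The treatments were activin A at 50 ng/ml, the receptor inhibitor SB431542 at 10 µM, BMP4 at 10 ng/ml and the receptor inhibitor LDN193189 at 50 nM. Activin A and BMP4 are ligands of the TGF-beta family, SB431542 inhibits the type I receptors of activin and Nodal, and LDN193189 inhibits those of BMP. Sample titles name the lines HMCES-KO1 and HMCES-KO2 for the libraries of the count table as well as for the treated libraries. KO7 and KO8 may therefore be the same lines as KO1 and KO2. The sources used here do not state which of KO7 and KO8 is KO1, so each line is described under its own name. The labels do not state that replicate libraries are separate cultures. P-values therefore measure the spread between these libraries alone, and that spread may be technical.

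In ES cells, FGF4 that the cells secrete binds FGF receptors, and the signal runs through RAS, RAF and MEK to the kinase ERK. ERK activity moves ES cells out of the naive state and towards lineage choice, and in the blastocyst FGF signalling directs cells to the primitive endoderm. ERK induces its own inhibitors: Sprouty proteins act on the receptor and RAS steps, and dual-specificity phosphatases (DUSPs) remove the activating phosphates from ERK, so levels of Spry and Dusp transcripts are widely used as readouts of ERK activity.

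Promoter windows of 250 bases before to 50 after the start were held for 4 of the 10 genes, Fgf4, Fgfr2, Spry2 and Dusp6 (RefSeq, GRCm38.p6, which is mm10). The windows of the 2 feedback genes, and of the receptor gene that differed most between knockout lines, are shown because ETS factors are known to act at ERK-responsive promoters. The letters searched were CCGGAA, the core of many ETS sites, on both strands, and a match is in capitals. The windows lie at chr10:99262981-99263280 (plus strand) for Dusp6, chr14:105896770-105897069 (minus strand) for Spry2 and chr7:130266759-130267058 (minus strand) for Fgfr2, each written 5′ to 3′ on the strand of its gene.
Dusp6: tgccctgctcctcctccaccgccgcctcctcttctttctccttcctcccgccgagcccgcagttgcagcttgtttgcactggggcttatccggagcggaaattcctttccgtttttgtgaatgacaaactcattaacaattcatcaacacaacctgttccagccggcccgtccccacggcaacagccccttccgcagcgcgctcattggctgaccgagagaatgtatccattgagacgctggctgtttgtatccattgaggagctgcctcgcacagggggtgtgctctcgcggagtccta
Spry2: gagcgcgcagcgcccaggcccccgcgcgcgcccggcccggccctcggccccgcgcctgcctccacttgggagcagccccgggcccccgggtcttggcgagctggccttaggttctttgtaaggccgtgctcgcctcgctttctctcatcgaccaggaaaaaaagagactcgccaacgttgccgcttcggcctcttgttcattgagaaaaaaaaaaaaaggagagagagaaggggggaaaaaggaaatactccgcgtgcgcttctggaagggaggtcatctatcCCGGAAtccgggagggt
Fgfr2: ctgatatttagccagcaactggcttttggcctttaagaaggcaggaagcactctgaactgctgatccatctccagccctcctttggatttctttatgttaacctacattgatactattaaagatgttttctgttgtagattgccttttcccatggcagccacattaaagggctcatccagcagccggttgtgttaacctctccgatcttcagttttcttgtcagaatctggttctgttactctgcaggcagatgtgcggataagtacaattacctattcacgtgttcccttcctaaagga
Spry2 held 1 match, starting at base 284 of its window and overlapping none other, and the windows of Dusp6, Fgfr2 and Fgf4 held none. Of 32841 windows of this length in the table, 14.9% held a match. The letters CAGAC, a SMAD-bound sequence, had no match in any of the 4 windows, against 49.6% of all windows. A match describes these letters and not binding.

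The count table held 9571113 to 13512922 counts per library. The whole reads recovered behind the TPM values numbered 8524110 to 10037099 per untreated library and 4001728 to 5363146 per treated library. Hmces was below both WT libraries of its table in every HMCES-KO library. In percent of the WT mean of the table it stood at 36.4% and 37.0% in KO7, 25.7% and 24.1% in KO8 and 21.2% and 22.1% in the untreated HMCES-KO pair, and after treatment at 51.7% to 64.1% in KO1 and 25.0% to 34.0% in KO2. The sources used here do not name the exons disrupted, so a transcript level is a limited check of the knockout. All 6 ES cell markers (Pou5f1, Nanog, Sox2, Zfp42, Esrrb and Tdgf1) were present in every library, with a summed level of 9120 to 11078 TPM in the untreated libraries of both tables. After treatment the sum was 16206 to 19031 TPM in KO1, 14100 to 16608 TPM in KO2 and 14223 to 15989 TPM in WT. In WT, Tdgf1 had 842 to 846 TPM in the untreated TPM table and 26.6 to 42.4 TPM after treatment. Zfp42 had 1617 to 1636 TPM and 5541 to 6723 TPM in the same order. Differences between untreated and treated libraries were not tested.

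Markers of other cell types differed between knockout and WT in the count table, and less in the untreated TPM table. In KO7, 8 of 9 endoderm markers were called lower, and in KO8 all 9, with summed levels of 23.7 to 23.9 TPM in KO7, 10.6 to 12.6 TPM in KO8 and 63.1 to 71.7 TPM in WT, and 4 of the 9 were under 1 TPM in both KO8 libraries. All 3 fibroblast markers that could be tested of 7 fell in each of the same lines, with sums of 17.8 to 18.3 TPM in KO7, 24.3 to 27.0 TPM in KO8 and 62.7 to 63.0 TPM in WT. Trophectoderm markers summed to 17.6 to 20.3 TPM in KO7, 46.7 to 47.2 TPM in KO8 and 31.3 to 32.7 TPM in WT, and 3 of 5 tested were higher in KO8 than in KO7. Epiblast markers summed to 216 to 226 TPM in KO7, 309 to 326 TPM in KO8 and 205 to 206 TPM in WT. Of these 5 markers, 2 were called higher and 2 lower in KO7 (median log2 fold change -0.16), and 3 higher and 0 lower in KO8 (0.40). Neuroectoderm markers summed to 349 to 364 TPM in KO7, 253 to 272 TPM in KO8 and 165 to 181 TPM in WT, and 3 of 4 tested were higher in each line. In the untreated TPM table, endoderm markers summed to 17.1 to 17.4 TPM in HMCES-KO and 21.8 to 22.2 TPM in WT, with 1 of 6 tested called lower, and fibroblast markers to 22.8 to 27.4 TPM in HMCES-KO and 34.4 to 36.0 TPM in WT. Epiblast sums of that table overlapped, at 200.03 to 211 TPM in HMCES-KO and 208 TPM in both WT libraries, and trophectoderm sums were close, at 15.8 to 16.5 TPM in HMCES-KO and 15.2 to 15.3 TPM in WT. Its neuroectoderm sums were 191 to 218 TPM in HMCES-KO and 153 to 165 TPM in WT, and 2 of 5 markers were called higher. After treatment, endoderm markers summed to 17.9 to 45.9 TPM in KO1, 17.9 to 58.6 TPM in KO2 and 32.1 to 86.7 TPM in WT, fibroblast markers to 4.36 to 22.4 TPM in KO1, 9.69 to 22.8 TPM in KO2 and 29.9 to 45.1 TPM in WT, and epiblast markers to 206 to 248 TPM in KO1, 271 to 308 TPM in KO2 and 150.4 to 195 TPM in WT. Within each of the 4 tables, KO1 and KO2 were below both WT libraries for endoderm and fibroblast sums and above both for epiblast sums. Single epiblast markers did not all follow their sum. Over the 4 treatments, 1 of 5 was called higher and 0 lower in KO1 (median log2 fold change -0.09), and 3 higher and 0 lower in KO2 (0.72). Trophectoderm sums were 49.1 to 69.9 TPM in KO1, 69.8 to 90.4 TPM in KO2 and 54.7 to 116 TPM in WT. For these sums KO1 was below both WT libraries in each table. KO2 was below both under activin A and SB431542 and above both under BMP4 and LDN193189. Neuroectoderm markers summed to 768 to 1243 TPM in treated KO1, 655 to 1035 TPM in KO2 and 635 to 897 TPM in WT, with KO1 above both WT libraries in each of the 4 tables and KO2 in 2 of them. Their part in the results below was not tested, and in bulk RNA fewer cells of a type and less RNA per cell cannot be told apart.

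Among untreated cells with counts, the phosphatase gene Dusp9 and the ligand gene Hbegf fell in both knockout lines, and 6 of the 10 genes differed between the lines. Calls are by edgeR's quasi-likelihood test, with a Benjamini-Hochberg adjusted p under 0.05 over all genes tested. In KO7, 1 of the 10 genes rose (Fgf15) and 3 fell (Dusp9, Hbegf and Spry2), while edgeR called 19.0% of all 13475 genes tested higher and 19.2% lower. In KO8, 3 rose (Fgfr2, Dusp4 and Spry2) and 3 fell (Dusp9, Dusp6 and Hbegf), beside 19.3% of all genes higher and 19.7% lower. The median log2 fold change of the 10 genes was 0.01 in KO7 and 0.02 in KO8, against 0.00 and -0.01 over all genes. The share of the 10 genes called was near that of all genes in KO7 and above it in KO8. The 10 genes were chosen with results of these data known, so no test was made of this. KO7 and KO8 were set against the same WT libraries. Between the lines themselves, 4 of the 10 genes were higher in KO8 than in KO7 (Fgfr2, Dusp4, Spry2 and Hbegf) and 2 lower (Fgf15 and Dusp6), beside 13.9% of all genes higher and 14.3% lower. With the 4 HMCES-KO libraries taken as 1 group, Dusp9 alone of the 10 remained called (edgeR adjusted p = 0.0048).

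**Figure D1:**
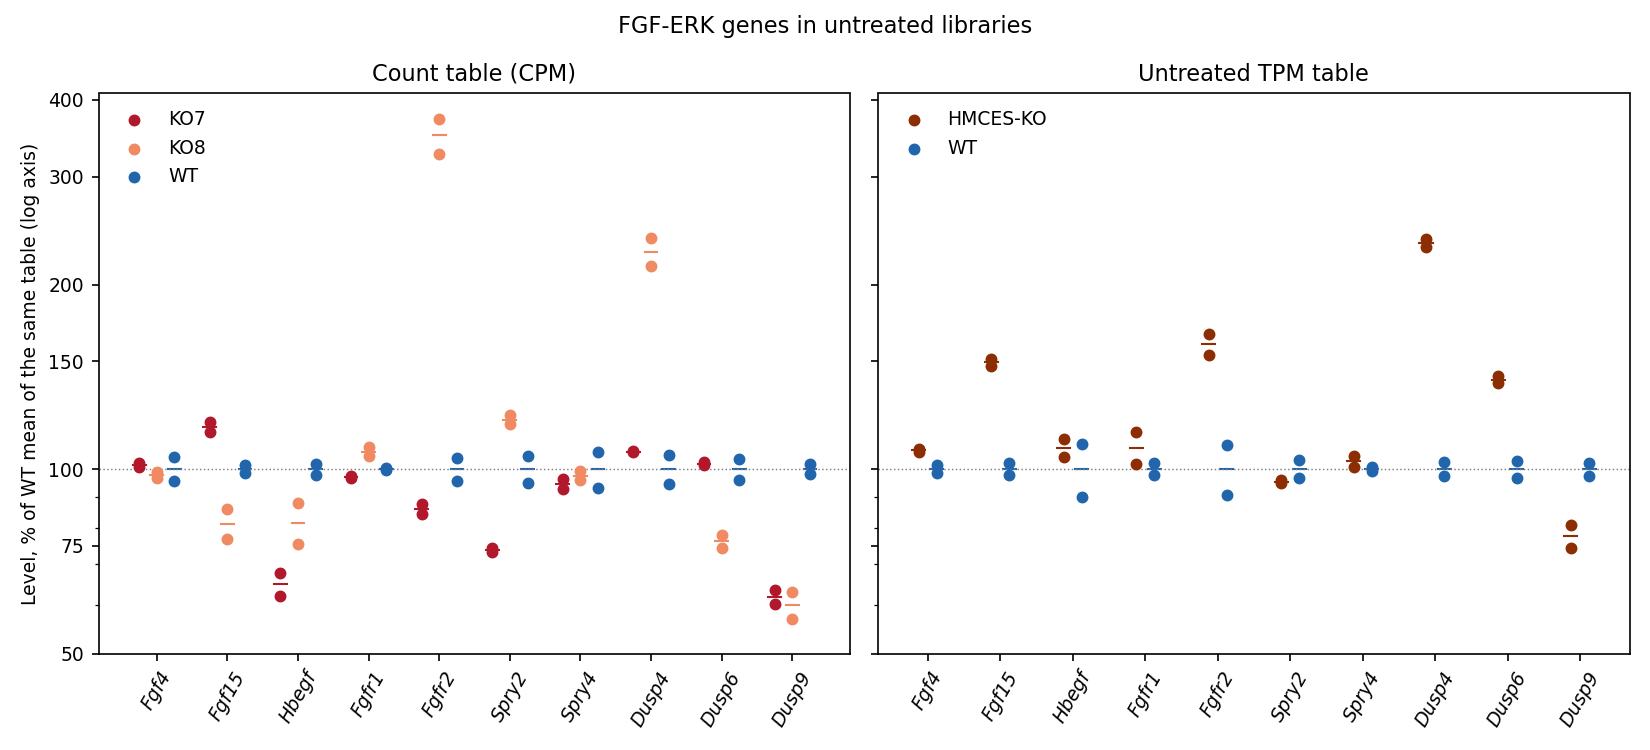
Level of each gene in each untreated library, in percent of the WT mean of its table (log axis), with a short bar at the group mean. KO7, KO8 and WT of the count table are on the left and HMCES-KO and WT of the TPM table on the right, with 2 libraries each. Fgfr2 stands at 327% and 373% in KO8, and Dusp9 is below WT in all 3 knockout groups.

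Among the untreated libraries with TPM, Dusp4, Fgf15 and Dusp6 rose and Dusp9 fell. Limma, on log2(TPM + 1), called these 3 genes higher and 1 lower, beside 5.80% of 13314 genes higher and 10.2% lower, and the median of the 10 was 0.12 against -0.06 over all genes. After treatment, Hbegf, Spry4 and Dusp6 fell in HMCES-KO under each of the 4 treatments, and Fgf15 rose under activin A. Under activin A limma called 1 of the 10 genes higher and 3 lower, beside 5.10% of 12608 genes higher and 7.03% lower. With each of the other treatments it called none higher and 3 lower. The background was 5.41% higher and 6.73% lower for SB431542, 2.13% and 4.20% for BMP4, and 0.793% and 1.50% for LDN193189. Each share of genes called lower was smaller than the 3 of 10. Each treated HMCES-KO group holds 1 library of KO1 and 1 of KO2, and its spread includes the difference between lines.

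Taken line by line over the 4 treatments, limma called 1 gene higher (Fgfr1) and 6 lower (Hbegf, Dusp9, Spry4, Spry2, Dusp6 and Dusp4) in KO1, beside 12.4% of all genes higher and 20.3% lower. In KO2 it called 4 higher (Fgfr2, Fgf15, Fgfr1 and Dusp4) and 4 lower (Hbegf, Spry4, Dusp6 and Dusp9), beside 12.2% higher and 16.6% lower. The median log2 fold change of the 10 genes was -0.38 in KO1 and 0.00 in KO2, against -0.07 and -0.02 over all genes, and in both lines the share called lower among the 10 was above that over all genes. Between the lines, Fgfr2, Dusp9, Dusp4 and Spry2 were higher in KO2 than in KO1, beside 3.89% of all genes higher, and none of the 10 was lower, beside 2.70%. KO1 and KO2 share the WT libraries, and libraries of a line under different treatments were counted as separate, so the spread between independent lines is not part of these p-values.

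**Figure D2:**
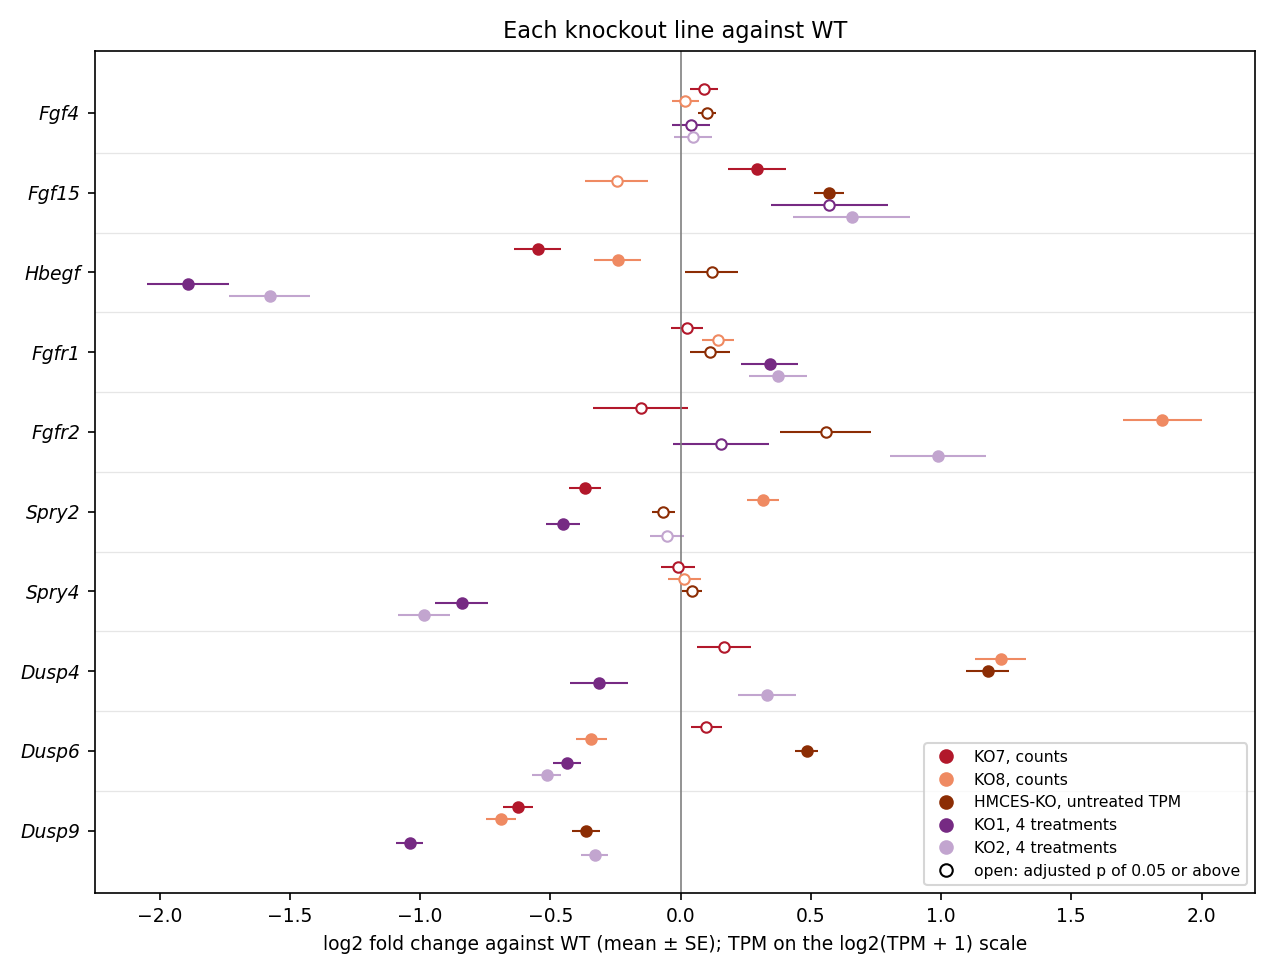
Log2 fold change ± SE of each gene against WT for KO7 and KO8 (counts, 2 libraries each against 2), the untreated HMCES-KO pair (TPM, 2 against 2), and KO1 and KO2 over the 4 treatments (TPM, 4 against 8). Filled points had an adjusted p under 0.05. Dusp9 is left of 0 in all 5 comparisons, and Fgf4 lies between 0.02 and 0.10.

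Among the ligands, Fgf4 (mm10 chromosome 7, 144861386 to 144865245, plus strand), the main FGF of ES cells, was not called in any comparison by the tests used for the main values. It had 516 and 509 CPM (counts scaled to a common library total) in KO7 and 500.3 and 489 in KO8, against 528 and 482 in WT. These CPM are per library total, whereas the fold changes also use edgeR's TMM scaling factors, so the 2 can differ slightly. In the untreated TPM table Fgf4 had 464 and 458 TPM in HMCES-KO and 422 and 436 TPM in WT. The untreated KO libraries of the count table lay inside the WT range and those of the TPM table above it, by a log2 fold change of 0.10 ± 0.03 (limma adjusted p = 0.10). That difference was called with median-ratio scaling (0.16, limma adjusted p = 0.034) and with edgeR on recovered reads (0.16, adjusted p = 0.00091). In KO7, where the log2 fold change was 0.09 ± 0.05 (edgeR adjusted p = 0.20), Fgf4 was called higher without WT replicate 1 (0.15, edgeR adjusted p = 0.0036). After treatment Fgf4 ran from 168 to 223 TPM in KO1, 183 to 215 TPM in KO2 and 160.5 to 238 TPM in WT. Within tables, KO1 and KO2 were both above both WT libraries under activin A and LDN193189. Under SB431542 KO2 was above WT and KO1 within the WT range, and under BMP4 KO2 was below WT and KO1 within its range. Its log2 fold change was 0.04 ± 0.07 in KO1 and 0.05 ± 0.07 in KO2 (limma adjusted p = 0.71 and 0.66).

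Fgf15, also on chromosome 7 (144896532 to 144900951, plus strand) and a secreted FGF of the endocrine type, differed by line and by treatment. It had 24.6 and 25.6 CPM in KO7 and 16.5 and 18.5 CPM in KO8, against 21.8 and 21.2 CPM in WT. Both KO7 libraries were above and both KO8 libraries below the WT pair. The log2 fold change was 0.29 ± 0.11 in KO7 (edgeR adjusted p = 0.045) and -0.24 ± 0.12 in KO8 (0.12), and KO8 was lower than KO7 by 0.54 ± 0.12 (edgeR adjusted p = 0.0015). The KO7 call was lost with DESeq2 (adjusted p = 0.20) and without any 1 of the 6 libraries (edgeR adjusted p = 0.055 to 0.19). In the untreated TPM table Fgf15 had 70.7 and 72.7 TPM in HMCES-KO and 46.9 and 49.0 TPM in WT, a rise of 0.57 ± 0.06 (limma adjusted p = 0.0051).

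Under activin A, Fgf15 had 58.6 TPM in KO1 and 61.1 TPM in KO2, against 17.2 and 25.99 TPM in WT, from 179 reads in KO1, 179 in KO2 and 54 and 81 in WT. Both knockout libraries were above both WT libraries, by 1.46 ± 0.27 (limma adjusted p = 0.0041), and the call was lost without WT replicate 1 of that table (limma adjusted p = 0.052). Under SB431542, Fgf15 had 17.3 TPM in KO1 and 21.8 TPM in KO2, against 9.07 and 13.3 TPM in WT, again without overlap. That difference of 0.77 ± 0.27 missed the threshold (limma adjusted p = 0.079) and passed it with line as a replicate block (limma adjusted p = 0.0076). Under BMP4, Fgf15 had 29.4 TPM in KO1, 34.6 TPM in KO2 and 22.4 and 37.1 TPM in WT, and under LDN193189 27.3 TPM in KO1, 22.8 TPM in KO2 and 20.4 and 26.9 TPM in WT. KO1 under LDN193189 was just above WT, and the other 3 of these knockout libraries lay within the WT range. Over the 4 treatments Fgf15 rose by 0.66 ± 0.22 in KO2 (limma adjusted p = 0.037), a call lost without 7 of the 12 libraries of KO2 and WT, each in turn (0.057 to 0.19), and with limma without trend (0.067), and it stood at 0.57 ± 0.22 in KO1 (0.062). The KO1 difference was called with a replicate block (limma adjusted p = 0.039), with median-ratio scaling (0.039), with edgeR on recovered reads (0.019) and without any 1 of 3 libraries of KO1 and WT (0.023 to 0.0499).

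Hbegf (chromosome 18, 36504927 to 36515805, minus strand) encodes an EGF-family ligand that signals to ERK through EGF receptors and is itself induced by ERK. It had 43.4 and 39.9 CPM in KO7 and 56.5 and 48.5 CPM in KO8, against 62.9 and 65.5 CPM in WT. All 4 knockout libraries were below both WT libraries, with a log2 fold change of -0.55 ± 0.09 in KO7 (edgeR adjusted p = 7.1e-05) and -0.24 ± 0.09 in KO8 (0.037). The KO8 call was lost with DESeq2 (adjusted p = 0.17), and with edgeR without WT replicate 2 (0.080), KO7 replicate 1 (0.068) or 2 (0.063) or KO8 replicate 2 (0.42). KO8 minus KO7 was 0.31 ± 0.09 (0.016), which was not called with DESeq2 (adjusted p = 0.075) or with edgeR without KO7 replicate 1 (0.057), KO7 replicate 2 (0.16) or KO8 replicate 1 (0.27). Hbegf had 65.3 and 61.1 TPM in HMCES-KO and 52.6 and 64.1 TPM in WT of the untreated TPM table, which overlap.

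After treatment Hbegf had the largest fold changes of the 10 genes in size. Under activin A it had 5.99 TPM in KO1 and 7.03 TPM in KO2, against 29.8 and 29.4 TPM in WT. Under SB431542 it had 7.85 TPM in KO1 and 6.17 TPM in KO2, against 30.1 and 30.5 TPM in WT. All 4 of these knockout libraries were at 20.2% to 25.9% of the WT mean of their table. Under BMP4 Hbegf had 4.53 TPM in KO1 and 7.86 TPM in KO2, against 20.5 and 19.7 TPM in WT, and under LDN193189 4.99 TPM in KO1 and 8.58 TPM in KO2, against 19.5 and 17.1 TPM in WT. KO2 was nearest to WT in these last tables, at 39.2% under BMP4 and 47.0% under LDN193189. The depth behind Hbegf was 21 to 40 reads per knockout library and 64 to 135 reads per WT library. Its log2 fold change was -2.03 ± 0.26 for activin A (limma adjusted p = 0.00047), -1.97 ± 0.26 for SB431542 (0.00067), -1.59 ± 0.26 for BMP4 (0.0044) and -1.34 ± 0.26 for LDN193189 (0.018). These are on the log2(TPM + 1) scale, where the change of a low gene is understated. The LDN193189 call was lost on leaving out KO1 (limma adjusted p = 0.12) or either WT library of that table (0.14 and 0.10), and the BMP4 and LDN193189 calls were lost when only the 4 libraries of the table were fitted (limma adjusted p = 0.065 and 0.19). Across the treatments the log2 fold change was -1.89 ± 0.16 in KO1 and -1.58 ± 0.16 in KO2 (limma adjusted p = 3.3e-07 and 3.9e-06), and KO2 minus KO1 was 0.31 ± 0.18 (0.36).

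**Figure D3:**
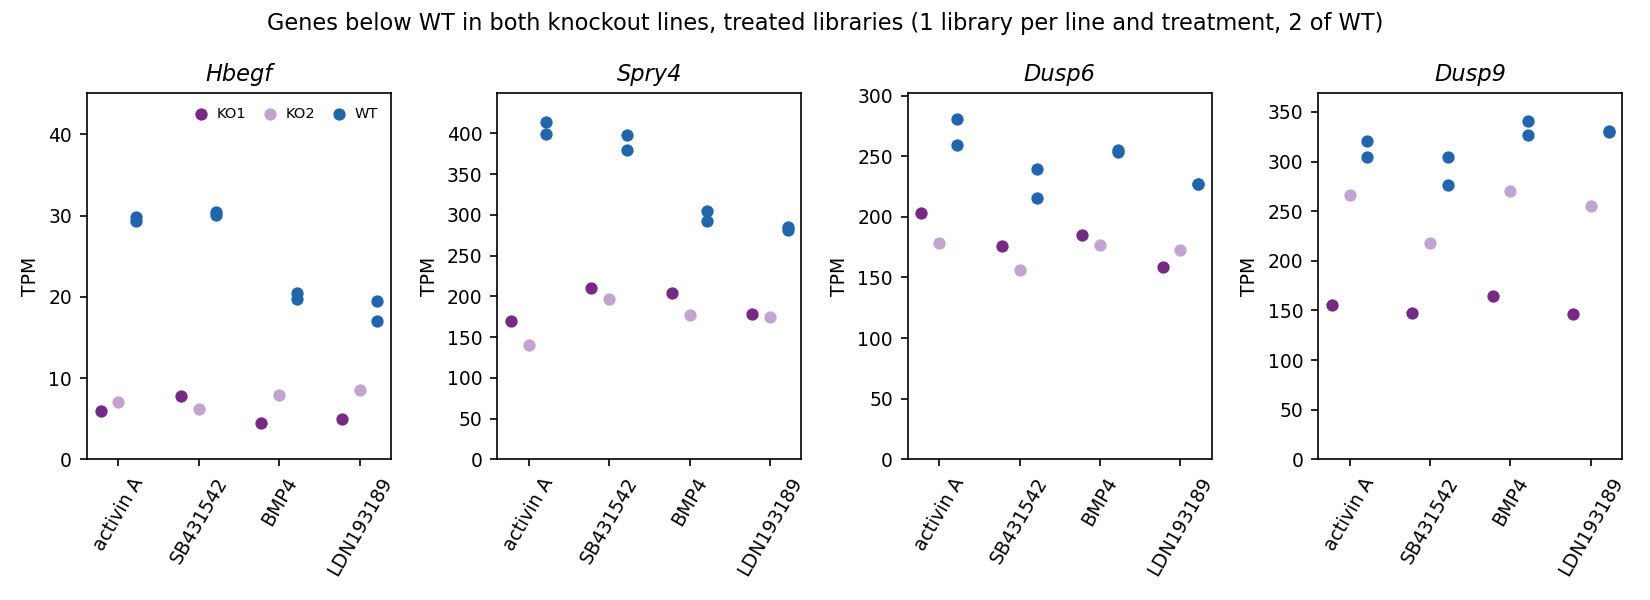
TPM of Hbegf, Spry4, Dusp6 and Dusp9 in each treated library, by treatment, for KO1 and KO2 (1 library each) and WT (2 libraries, whose points overlap where the values are close). Each knockout point lies below both WT points of its treatment, and KO1 is the lowest for Dusp9 at 147 to 165 TPM.

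Of the receptors, Fgfr1 (chromosome 8, 25518759 to 25575718, plus strand), the FGF receptor most expressed in ES cells, was nearly level in untreated cells. It had 118 and 119 CPM in KO7 and 133 and 129 CPM in KO8, against 123 and 122 CPM in WT, and neither line was called (edgeR adjusted p = 0.80 and 0.071), though KO8 was called higher without WT replicate 2 (0.16, edgeR adjusted p = 0.030). Fgfr1 had 61.5 and 54.5 TPM in HMCES-KO and 54.7 and 52.3 TPM in WT of the untreated TPM table (limma adjusted p = 0.36). After treatment it ran from 23.4 to 26.9 TPM in KO1, 22.9 to 29.0 TPM in KO2 and 16.03 to 24.001 TPM in WT. In each of the 4 tables both knockout libraries were above both WT libraries, at 104% to 148% of the WT mean. No single treatment was called by limma (adjusted p = 0.14 to 0.78), and edgeR on recovered reads called Fgfr1 higher under BMP4 (0.54, adjusted p = 0.047). Over the 4 treatments Fgfr1 rose by 0.34 ± 0.11 in KO1 and 0.37 ± 0.11 in KO2 (limma adjusted p = 0.026 and 0.019). The KO1 call was lost without its SB431542 library (0.11) or its BMP4 library (0.058), and the KO2 call without its activin A library (0.087) or its BMP4 library (0.081).

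Fgfr2 (chromosome 7, 130162451 to 130266808, minus strand) encodes the FGF receptor known from the primitive endoderm and trophectoderm of the embryo. It had 5.92 and 6.13 CPM in KO7 and 26.1 and 22.9 CPM in KO8, against 7.31 and 6.69 CPM in WT. KO8 stood far above WT and KO7 a little below it. Fgfr2 rose by 1.85 ± 0.15 in KO8 (edgeR adjusted p = 1.4e-08) and was at -0.15 ± 0.18 in KO7 (0.55), and KO8 minus KO7 was 2.00 ± 0.15 (5.0e-09), the largest difference between these lines among the 10 genes. In the count table, trophectoderm and epiblast marker sums were also highest in KO8, and endoderm sums lowest. Of 5 trophectoderm markers tested, 2 were called higher in KO8 than in WT and 0 lower. Their list also holds Eomes, with 4.90 to 5.36 TPM in KO8 and 6.25 to 6.80 TPM in WT. A link of these sums to Fgfr2 was not tested. Fgfr2 had 5.92 and 5.48 TPM in HMCES-KO and 3.896 and 3.23 TPM in WT of the untreated TPM table, without overlap but not called at 0.56 ± 0.17 (limma adjusted p = 0.083). On the recovered reads, 110 and 87 in HMCES-KO and 69 and 56 in WT, edgeR called it (adjusted p = 0.0049).

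After treatment Fgfr2 was above both WT libraries in KO2 in each of the 4 tables, and in KO1 under activin A and SB431542 but not under BMP4 or LDN193189. Under activin A it had 1.80 TPM in KO1 and 3.92 TPM in KO2, against 1.19 and 1.68 TPM in WT, and under SB431542 2.03 TPM in KO1 and 4.36 TPM in KO2, against 1.10 and 0.999 TPM in WT. Under BMP4 it had 0.989 TPM in KO1 and 2.65 TPM in KO2, against 1.204 and 0.827 TPM in WT, and under LDN193189 0.925 TPM in KO1 and 2.39 TPM in KO2, against 0.740 and 1.57 TPM in WT. These levels rest on 13 to 30 reads in KO1, 34 to 56 in KO2 and 8 to 21 in WT. Over the 4 treatments Fgfr2 rose by 0.99 ± 0.18 in KO2 (limma adjusted p = 0.00090) and stood at 0.16 ± 0.18 in KO1 (0.55). KO2 exceeded KO1 by 0.83 ± 0.21 (0.027), a call that was lost with a pseudocount of 0.1 (limma adjusted p = 0.056), with only the groups compared in the fit (0.073) and without 6 of the 8 knockout libraries, each in turn (0.052 to 0.090).

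Of the Sprouty genes, Spry2 (chromosome 14, 105891947 to 105896819, minus strand) moved in opposite directions in KO7 and KO8. It had 165 and 163 CPM in KO7 and 272 and 262 CPM in KO8, against 211 and 233 CPM in WT. Both KO7 libraries were below WT and both KO8 libraries above it. The log2 fold change was -0.37 ± 0.06 in KO7 (edgeR adjusted p = 9.8e-05) and 0.32 ± 0.06 in KO8 (0.00038), and KO8 exceeded KO7 by 0.68 ± 0.06 (4.2e-08). In the untreated TPM table Spry2 had 337 and 340.2 TPM in HMCES-KO and 343 and 367 TPM in WT, with an adjusted p of 0.34 from limma. After treatment KO1 was below both WT libraries of its table in all 4 tables, at 64.7% to 86.9% of the WT mean, while KO2 was at 92.2% to 105%. Spry2 fell by 0.45 ± 0.07 in KO1 (limma adjusted p = 7.6e-05) and stood at -0.05 ± 0.07 in KO2 (0.59), and the lines differed by 0.40 ± 0.08 (0.0039). With line as a replicate block, Spry2 was called lower under BMP4 (limma adjusted p = 0.014) and LDN193189 (0.021), against 0.28 and 0.34 without it.

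Spry4 (chromosome 18, 38586247 to 38601347, minus strand) was level in untreated cells and lower in both knockout lines after each treatment. It had 308 and 297 CPM in KO7 and 317 and 307 CPM in KO8, against 298 and 342 CPM in WT, so all 4 knockout libraries lay near or inside the WT range. Neither line was called, at -0.01 ± 0.06 in KO7 and 0.01 ± 0.06 in KO8 (edgeR adjusted p = 0.92 and 0.89), and the direction depended on which WT library was left out. Without WT replicate 1 Spry4 was called lower in KO7 (-0.11, edgeR adjusted p = 0.046), and without WT replicate 2 it was called higher in KO7 (0.11, 0.045) and in KO8 (0.13, 0.016). Spry4 had 345 and 359 TPM in HMCES-KO and 339 and 344 TPM in WT of the untreated TPM table, a log2 fold change of 0.04 ± 0.04 (limma adjusted p = 0.47). Under activin A it had 169 TPM in KO1 and 141 TPM in KO2, against 414 and 399 TPM in WT. The activin A libraries held the lowest knockout level and the highest WT level of Spry4.

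Under SB431542 Spry4 had 210.4 TPM in KO1 and 197 TPM in KO2, against 398 and 379 TPM in WT. Under BMP4 it had 204 TPM in KO1 and 177 TPM in KO2, against 305 and 293 TPM in WT, and under LDN193189 178 TPM in KO1 and 175 TPM in KO2, against 281 and 285 TPM in WT. Each of the 8 treated knockout libraries was below both WT libraries of its table, at 34.6% to 68.1% of the WT mean. The log2 fold change of Spry4 was -1.39 ± 0.10 for activin A (limma adjusted p = 3.2e-05), -0.93 ± 0.10 for SB431542 (0.00020), -0.65 ± 0.10 for BMP4 (0.0031) and -0.68 ± 0.10 for LDN193189 (0.0052). The BMP4 and LDN193189 calls were lost when only the table itself was fitted (limma adjusted p = 0.065 and 0.16), and the LDN193189 call also without WT replicate 2 of that table (0.075). Across treatments it was -0.84 ± 0.10 in KO1 and -0.99 ± 0.10 in KO2 (limma adjusted p = 1.5e-05 and 5.6e-06). Untreated and treated tables hold different libraries, their TPM values were scaled separately, and the difference between them was not tested.

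Of the phosphatases, Dusp9 (chromosome X, 73639441 to 73643514, plus strand), which acts on ERK in the cytoplasm and is known in mouse ES cells as a BMP target, was below WT in every knockout library. It had 285 and 299.8 CPM in KO7 and 269 and 297 CPM in KO8, against 482 and 463 CPM in WT. Its log2 fold change was -0.62 ± 0.06 in KO7 (edgeR adjusted p = 7.4e-08) and -0.69 ± 0.06 in KO8 (1.8e-08), and the lines did not differ beyond their spread (-0.06 ± 0.06, 0.45). Dusp9 had 258 and 237 TPM in HMCES-KO and 326 and 311 TPM in WT of the untreated TPM table, a log2 fold change of -0.36 ± 0.05 (limma adjusted p = 0.012) that was not called without WT replicate 1 (0.060) or with limma without trend (0.085).

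After treatment Dusp9 ran from 147 to 165 TPM in KO1, 217 to 269.9 TPM in KO2 and 276 to 341 TPM in WT, and the 3 ranges did not overlap. KO1 stood at 44.4% to 50.6% and KO2 at 74.9% to 85.1% of the WT mean of the table. Across treatments Dusp9 fell, by a log2 fold change of -1.04 ± 0.05 in KO1 (limma adjusted p = 2.2e-09) and -0.33 ± 0.05 in KO2 (0.00025), and KO2 exceeded KO1 by 0.71 ± 0.06 (3.4e-06). Within single treatments, where KO1 and KO2 form a group, Dusp9 was not called (limma adjusted p = 0.14 to 0.20). With line as a replicate block it was called under activin A (limma adjusted p = 0.00035), SB431542 (0.00019), BMP4 (0.00047) and LDN193189 (0.00027), each time at the same fold change.

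Dusp6 (chromosome 10, 99263231 to 99267489, plus strand) encodes the ERK phosphatase most often used as a readout of FGF-ERK activity. It had 230.2 and 233 CPM in KO7 and 177 and 169 CPM in KO8, against 218 and 236 CPM in WT. KO7 lay inside the WT range and KO8 below it, at a log2 fold change of -0.34 ± 0.06 in KO8 (edgeR adjusted p = 0.00018). KO7 was not called, at a log2 fold change of 0.10 ± 0.06 (0.20), but was called higher without WT replicate 2 (0.17, edgeR adjusted p = 0.0037). KO8 was lower than KO7 by 0.44 ± 0.06 (1.1e-05). The sign was the other way in the untreated TPM table: Dusp6 had 324 and 332 TPM in HMCES-KO and 242 and 227 TPM in WT, a rise of 0.48 ± 0.04 (limma adjusted p = 0.0042) that missed the threshold with limma without trend (0.059).

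Under activin A Dusp6 had 203 TPM in KO1 and 178 TPM in KO2, against 281 and 259 TPM in WT. Over all 4 treatments it ran from 158 to 203 TPM in KO1, 156 to 178 TPM in KO2 and 216 to 281 TPM in WT, and the knockout libraries stood at 66.0% to 77.5% of the WT mean of their table. The log2 fold change of Dusp6 was -0.50 ± 0.10 for activin A (limma adjusted p = 0.0061), -0.45 ± 0.10 for SB431542 (0.011), -0.49 ± 0.10 for BMP4 (0.012) and -0.46 ± 0.10 for LDN193189 (0.031). Each of these calls was lost on leaving out single libraries of its own table: WT replicate 1 or KO2 for activin A (limma adjusted p = 0.062 and 0.062), WT replicate 2 or KO2 for SB431542 (0.11 and 0.085), either WT library or KO2 for BMP4 (0.064 to 0.087), and either WT library or KO1 for LDN193189 (0.14 to 0.18). The BMP4 and LDN193189 calls were also lost with limma without trend (0.054 and 0.12) and with only the groups compared in the fit (0.087 and 0.24), and the LDN193189 call with median-ratio scaling (0.070) and with edgeR on recovered reads (0.059). Across the treatments the log2 fold change was -0.44 ± 0.05 in KO1 and -0.51 ± 0.05 in KO2 (limma adjusted p = 2.0e-05 and 7.1e-06).

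Dusp4 (chromosome 8, 34807610 to 34819894, plus strand) encodes a nuclear phosphatase of ERK that is itself induced by ERK. It had 28.7 and 28.9 CPM in KO7 and 64.2 and 57.8 CPM in KO8, against 25.5 and 28.5 CPM in WT. KO8 was at 238% and 214% of the WT mean, a rise of 1.23 ± 0.10 (edgeR adjusted p = 8.9e-09), while KO7 was just above WT at 0.17 ± 0.10 (0.22) and differed from KO8 (1.06 ± 0.10 for KO8 minus KO7, 4.2e-08). In the untreated TPM table Dusp4 had 39.7 and 38.6 TPM in HMCES-KO and 16.3 and 17.2 TPM in WT, a rise of 1.18 ± 0.08 (limma adjusted p = 0.0021). After treatment it ran from 24.1 to 40.1 TPM in KO1, 46.2 to 54.1 TPM in KO2 and 30.5 to 49.3 TPM in WT. KO1 was below both WT libraries in all 4 tables and KO2 above both in 3 of them. Over the 4 treatments Dusp4 fell by 0.31 ± 0.11 in KO1 and rose by 0.33 ± 0.11 in KO2 (limma adjusted p = 0.040 and 0.033), and KO2 exceeded KO1 by 0.64 ± 0.13 (0.0056). The KO1 call was lost without 6 of the 12 libraries of KO1 and WT, each in turn (limma adjusted p = 0.061 to 0.21), with median-ratio scaling (0.10), with limma without trend (0.057) and with edgeR on recovered reads (0.10), and the KO2 call without 7 of the 12 of KO2 and WT (0.052 to 0.15) or with limma without trend (0.051).

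**Figure D4:**
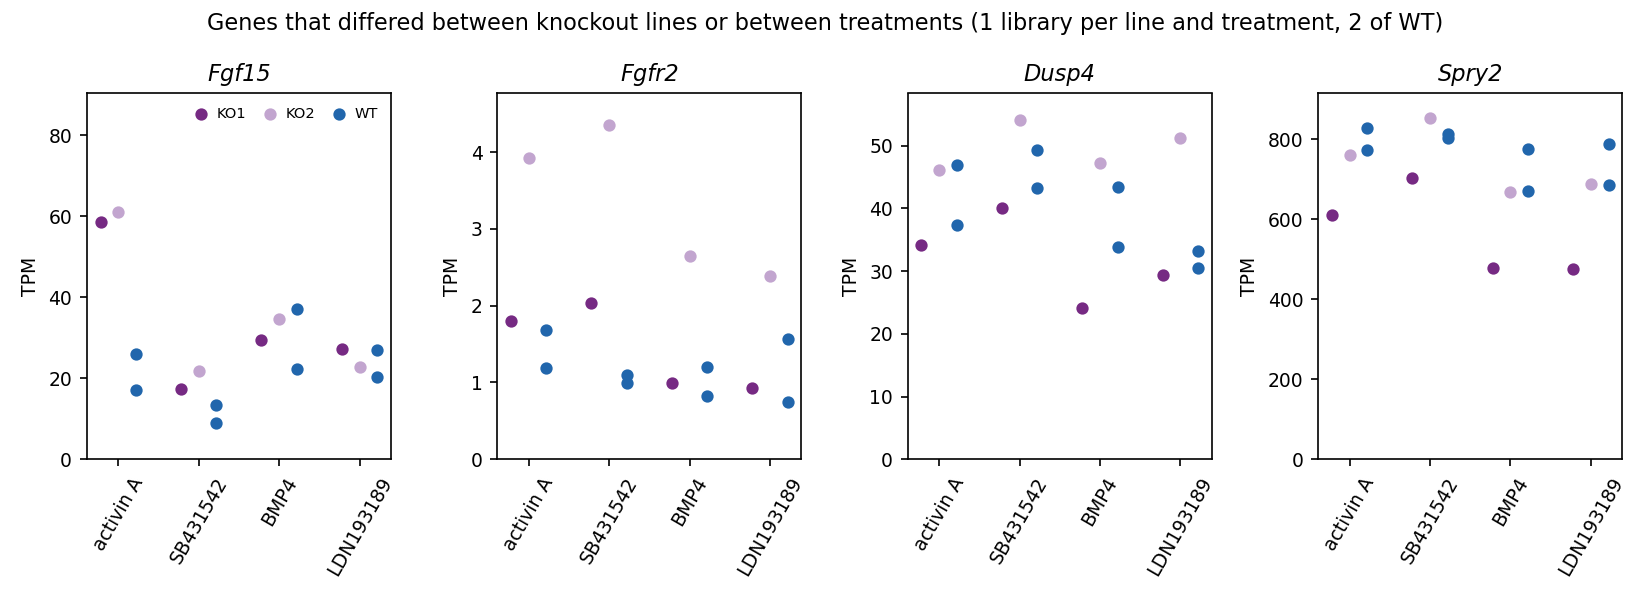
TPM of Fgf15, Fgfr2, Dusp4 and Spry2 in each treated library, by treatment, for KO1 and KO2 (1 library each) and WT (2 libraries). Fgf15 is highest in KO1 and KO2 under activin A, at 58.6 and 61.1 TPM, and KO2 lies above KO1 in every treatment for Fgfr2, Dusp4 and Spry2.

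Activin A against SB431542 compares a ligand with the inhibitor of its receptors, and each treatment is a table of its own, so treatment and table cannot be told apart. Fgf15 was the gene that differed. In HMCES-KO it averaged 59.8 ± 1.79 TPM under activin A and 19.6 ± 3.15 TPM under SB431542 (SD, n = 2 each), a log2 fold change of 1.57 ± 0.27 (limma adjusted p = 0.046). In WT it averaged 21.6 ± 6.25 TPM under activin A and 11.2 ± 3.01 TPM under SB431542 (SD, n = 2 each), at 0.88 ± 0.27 (limma adjusted p = 1.0). The difference between genotypes was 0.69 ± 0.38 and was not called (limma adjusted p = 1.0). Limma called 1 of the 10 genes in HMCES-KO, where it was higher under activin A, beside 0.0872% of all genes higher and 0.0159% lower. It called none in WT, beside 0.0159% of all genes higher and 0% lower, and none in the interaction, where 0 of 12608 genes were called. At an unadjusted p under 0.05 limma had 2 of the 10 genes in WT (Fgf15 and Dusp6), 2 in HMCES-KO and 1 in the interaction (Spry4, -0.46 ± 0.14), and edgeR on recovered reads called none in WT or in the interaction. Of all 12608 genes, limma had 445 in WT, 619 in HMCES-KO and 477 in the interaction at that unadjusted threshold. The Fgf15 call in HMCES-KO was lost without any 1 of its 4 libraries (limma adjusted p = 0.16 to 0.48), with a pseudocount of 0.1 (0.057), with no filter on low values (0.052), with limma without trend (0.15) and with only these groups in the fit (0.13).

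Spry4 stood at -0.40 ± 0.10 in HMCES-KO (limma adjusted p = 0.44) and 0.07 ± 0.10 in WT, activin A minus SB431542. The remaining 8 genes lay between -0.22 and 0.25 in both genotypes. BMP4 against LDN193189 gave no call among the 10 genes by limma in either genotype, beside 0.0238% of all genes higher and 0% lower in HMCES-KO and 0.0238% higher and 0.00793% lower in WT. At an unadjusted p under 0.05 limma had none of them in HMCES-KO and 1 in WT (Fgfr1, -0.40 ± 0.18), and edgeR on recovered reads also called none. Of all 12608 genes, limma had 580 in HMCES-KO and 565 in WT at that unadjusted threshold. Dusp9, the BMP target, stood at 0.12 ± 0.29 in HMCES-KO and 0.01 ± 0.29 in WT, BMP4 minus LDN193189.

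Levels were compared between genes per length, as TPM. In untreated HMCES-KO cells of the TPM table the order was Fgf4 (460.6 ± 4.04 TPM), Spry4 (352 ± 10.2), Spry2 (339 ± 1.95), Dusp6 (328 ± 5.60), Dusp9 (248 ± 15.0), Fgf15 (71.7 ± 1.37), Hbegf (63.2 ± 2.99), Fgfr1 (58.0 ± 4.98), Dusp4 (39.1 ± 0.823) and Fgfr2 (5.70 ± 0.313 TPM, SD, n = 2). The ranges of Hbegf and Fgfr1 overlapped and those of the other neighbours did not. In WT of that table Fgf4 (429 ± 9.95 TPM) was also highest and Fgfr2 (3.56 ± 0.469 TPM) lowest, but Dusp9 (319 ± 10.9 TPM) stood above Dusp6 (234 ± 10.7 TPM, SD, n = 2 each). In the treated tables Spry2 was highest in every group, with means of 573 to 777 TPM in HMCES-KO and 723 to 808 TPM in WT, and Fgfr2 lowest. Under activin A Spry4 had rank 5 in HMCES-KO, at 155 ± 20.1 TPM, and rank 2 in WT, at 407 ± 10.3 TPM.

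Of the other genes of the pathway, 27 further targets and feedback genes fell more often than they rose after treatment, as did all genes in KO1 and KO2. In KO1 2 of 26 tested rose and 12 fell, beside 12.4% of all genes higher and 20.3% lower (median -0.37 against -0.07 over all genes). In KO2 3 rose and 7 fell, beside 12.2% and 16.6% (median -0.11 against -0.02), so the share lower was above that of all genes in both lines. Under single treatments 1 rose and 5 fell with activin A, 6 fell with SB431542, 3 fell with BMP4, and 1 rose and 2 fell with LDN193189, beside 7.03%, 6.73%, 4.20% and 1.50% of all genes lower in that order. Etv4, an ETS factor induced by ERK, fell in KO7 (-0.52 ± 0.06), KO8 (-0.54 ± 0.07), the untreated TPM table (-0.35 ± 0.04), KO1 (-0.58 ± 0.05) and KO2 (-0.64 ± 0.05), each called by edgeR or limma. Spred2, a relative of the Sproutys that restrains RAF activation, fell in KO1 (-0.70 ± 0.10) and KO2 (-0.77 ± 0.10), and the early gene Ier2 rose in both (0.74 ± 0.04 and 0.32 ± 0.04). The group was mixed in untreated cells of the count table, with 5 of 24 higher and 4 lower in KO7 and 6 higher and 3 lower in KO8 (medians -0.10 and 0.07). In KO7 these shares were near the 19.0% of all genes higher and 19.2% lower, and in KO8 they stood beside 19.3% and 19.7%. Dusp16, which acts mainly on JNK and p38, fell in KO7 (-0.91 ± 0.08) and KO8 (-0.86 ± 0.08), and the immediate early gene Egr1 fell in KO7 (-1.78 ± 0.14). Of 23 tested in untreated cells by TPM, 2 rose and 2 fell, beside 5.80% and 10.2% of all genes.

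The signalling core comprised 24 genes from adaptors to ERK, all of them tested. After treatment 2 rose and 8 fell in KO1, beside 12.4% of all genes higher and 20.3% lower, and 3 rose and 3 fell in KO2, beside 12.2% and 16.6% (medians -0.12 and -0.00, against -0.07 and -0.02 over all genes). In untreated cells 2 rose and 4 fell in KO7, both below the shares of all genes (19.0% and 19.2%), and 3 rose and 6 fell in KO8 (19.3% and 19.7%). By TPM 4 of the 24 rose and 2 fell in untreated cells, beside 5.80% of all genes higher and 10.2% lower. The adaptor gene Gab1 rose in KO7 (0.79 ± 0.05), KO8 (0.50 ± 0.05), the untreated TPM table (0.95 ± 0.04) and KO1 (0.36 ± 0.06), stood at -0.01 ± 0.06 in KO2 (limma adjusted p = 0.96) and was lower in KO2 than in KO1 (-0.36 ± 0.07, 0.0057). Grb2, which links receptors to RAS activation, fell in KO1 (-0.45 ± 0.08) and KO2 (-0.46 ± 0.08). Of 22 further ligands and receptors, 15 could be tested in the count table, where 2 rose and 4 fell in KO7 and 4 rose and 5 fell in KO8, beside 19.0% of all genes higher and 19.2% lower in KO7 and 19.3% and 19.7% in KO8. Their median log2 fold change was -0.28 in KO7 and -0.34 in KO8, against -0.004 and -0.01 over all genes. The genes named next are among those that rose, and those called lower are not named here. Fgf1 rose in KO7 (1.50 ± 0.15), KO8 (0.88 ± 0.16), the untreated TPM table (0.76 ± 0.12) and KO1 (0.69 ± 0.23) and stood at -0.15 ± 0.23 in KO2 (limma adjusted p = 0.69). Fgf17 rose in KO7 (0.58 ± 0.10), KO8 (0.60 ± 0.10), the untreated TPM table (0.24 ± 0.04), KO1 (0.38 ± 0.11) and KO2 (0.63 ± 0.11). In KO2 the ligand genes Fgf5 (1.29 ± 0.38) and Fgf8 (1.51 ± 0.49) rose as well. After treatment 13 of the 22 could be tested, of which 2 rose and 0 fell in KO1, and 3 rose and 1 fell in KO2. Over all genes these shares were 12.4% higher and 20.3% lower in KO1, and 12.2% and 16.6% in KO2.

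Across the 16 treated libraries, which share treatments, lines and WT, the genes most like Spry4 in log2(TPM + 1) were Zswim8 (Pearson r of 0.967), Klf5 (0.967) and Ankrd33b (0.955). Those most like Dusp9 were Atox1 (0.952), Cacng7 (0.947) and Iqsec1 (0.942), those most like Dusp6 were Sowahc (0.931), Naxe (0.928) and Enc1 (0.927), and those most like Fgf4 were Sox12 (0.813), Zfp267 (0.808) and Zfp819 (0.788). For 5 further genes, where the closest gene was named after the values were seen, r was 0.982 for Hbegf with Plxna1, 0.950 for Spry2 with Gja1, 0.924 for Fgfr2 with Sema3e, 0.899 for Dusp4 with Slc40a1 and 0.891 for Fgfr1 with Zfp668.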

How the data were processed

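RNA sequencing libraries of untreated and treated mouse ES cells were analysed from 6 deposited tables. The submitters' processing notes name Bowtie2 2.3.3, featureCounts 2.0.1, SAMtools 1.9, FastQC 0.11.5 and DESeq2, with the mm10 genome. The authors deposited raw counts per gene for the untreated KO7, KO8 and WT libraries, and TPM for the other 20 libraries. No strand option is given in the sources used here, so reads of a gene and of an antisense partner cannot be told apart. Gene lengths and scaling may differ between untreated and treated TPM, which were not tested against each other.

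Groups followed the labels, and lines the column names. Counts were tested with edgeR 4.0.16 (R 4.3.3) by the quasi-likelihood test, with TMM scaling and filterByExpr, in 1 fit of KO7, KO8 and WT. TPM were tested with limma 3.58.1 (with trend) on log2(TPM + 1), in genes with at least 1 TPM in at least 2 libraries. The 16 treated libraries were fitted together, once with HMCES-KO as a group per treatment and once with KO1, KO2 and treatment as terms. P-values were adjusted by Benjamini-Hochberg over all genes tested, with a threshold of 0.05. A value after ± is the SE of a log2 fold change, or the SD where so marked.

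Whole reads were recovered from the deposited TPM: for untreated libraries 100% of values were whole within 0.01 reads, and in the treated tables reads could be solved within 0.05 for 12924 of 12928 genes. The alternatives were DESeq2 1.42.0, DESeq2 size factors or median-ratio scaling, no filter, a pseudocount of 0.1, limma without trend, only the groups compared in the fit, a replicate block (for treated libraries, line in HMCES-KO and replicate number in WT), leaving out each library and, chosen after seeing the data, edgeR on recovered reads. Methods were tested on simulated data. Deviations of same-numbered libraries correlated at -0.02 to 0.05, so those numbers did not pair libraries, while libraries of the same knockout line correlated across treatments at 0.264 to 0.381, and the line is given by the column names. The 10 genes and all lists were chosen with earlier results of these data known. All 10 genes and Hmces were named, in each pathway list at most the 4 called genes with the smallest adjusted p in a comparison, and the 3 genes most correlated with each of Dusp6, Dusp9, Spry4 and Fgf4.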

Additional observations from a re-analysis of the deposited data

Results flagged for a closer look

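In untreated cells of the count table, 6 of the 10 genes differed between the knockout lines by edgeR's test of KO8 against KO7. Over all genes tested, 13.9% were called higher and 14.3% lower in KO8 than in KO7. The log2 difference, KO8 minus KO7, was 2.00 for Fgfr2, 1.06 for Dusp4, 0.68 for Spry2, 0.31 for Hbegf, -0.44 for Dusp6 and -0.54 for Fgf15. Adjusted p-values ran from 5.0e-09 for Fgfr2 to 0.016 for Hbegf.

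In treated cells, 4 genes differed between KO2 and KO1 by limma over the 4 treatments. Over all genes tested, 3.89% were called higher and 2.70% lower in KO2 than in KO1. KO2 minus KO1 was 0.83 for Fgfr2, 0.71 for Dusp9, 0.64 for Dusp4 and 0.40 for Spry2, on the log2(TPM + 1) scale.

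Spry4 and Dusp6 were above WT in both untreated HMCES-KO libraries measured as TPM, with a log2 fold change of 0.043 for Spry4 and 0.48 for Dusp6, and below WT in all 8 treated HMCES-KO libraries. For Spry4 the untreated value was not called, and for neither gene was the difference between untreated and treated cells tested.

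The 4 untreated HMCES-KO libraries of the count table were examined for a single library far from the others for each of the 10 genes, and none stood apart. KO7 and KO8 were pooled in this check, so its spread includes the difference between lines. Whether a library was far from the other library of its own line was not tested, and no conclusion is drawn.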

How the results depend on the processing

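Of the values of the 10 genes under other settings, 1856 kept their side of the threshold, 96 lost their call, 26 gained one and 2 changed direction with a call on one side. Spry4 in KO7, at -0.01 and not called with all libraries, became 0.11 (edgeR adjusted p = 0.045) without WT replicate 2 and -0.11 (0.046) without WT replicate 1, and Spry2 in KO7 became 0.013 (0.98) with the HMCES-KO libraries as 1 group. Among the 1856 values, 86 that were not called under either setting changed sign. The causes were not tested.

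With the HMCES-KO libraries of the count table as 1 group, 1 of the 10 genes was called against WT, in place of 4 in KO7 and 6 in KO8. Of the 10 genes, 4 were called in the untreated TPM table, 2 with limma without trend and 8 with edgeR on recovered reads, where Fgf4 (0.16), Fgfr1 (0.17), Fgfr2 (0.73) and Spry4 (0.10) were called as well. With line as a replicate block, 6 genes were called for SB431542 and 5 each for activin A, BMP4 and LDN193189, and with a replicate block in the fits by line 8 in KO1 and 8 in KO2. With only the groups compared in the fit, 0 were called under BMP4 and 0 under LDN193189. The 1 gene called for activin A against SB431542 in HMCES-KO became 0 with a pseudocount of 0.1, no filter, limma without trend or only the groups compared. A replicate block on the numbers, which did not pair libraries, gave counts within 1.5 times of these in the untreated tables.

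Leaving out each library in turn gave 3 to 5 called genes in KO7, 5 to 7 in KO8, 5 to 6 for KO8 against KO7 and 3 to 4 in the untreated TPM table. For BMP4 it gave 2 to 3, for LDN193189 0 to 3, for SB431542 2 to 3 and for activin A 2 to 4 (2 without WT replicate 1). The low values for LDN193189 came on leaving out a library (0 without WT replicate 2, and 1 without WT replicate 1 or KO1). It gave 0 to 0 for activin A against SB431542 in HMCES-KO, 6 to 8 in KO1, 5 to 8 in KO2 (5 without its BMP4 library) and 3 to 4 for KO2 against KO1.

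Over all genes, DESeq2 called 3276 in KO7, 3286 in KO8 and 2291 between the lines, against 5149, 5248 and 3797 with edgeR, and 1552 were called with the HMCES-KO libraries as 1 group. Untreated with TPM, 2128 genes were called, 1311 with no filter, 339 with limma without trend and 3587 with edgeR on recovered reads. Under BMP4 798 were called, 443 without trend, 1353 with the replicate block and 41 with only the groups compared, and under LDN193189 289, 86, 703 and 1 in the same order. Median-ratio scaling moved the split of higher and lower calls to 1098 and 903 in the untreated TPM table, against 772 and 1356, to 348 and 391 under BMP4, against 268 and 530, to 132 and 119 under LDN193189, against 100 and 189, and to 2041 and 2035 in KO1, against 1566 and 2558. With 2 libraries a group and 8 to 56 reads behind Fgfr2 in treated libraries, small differences in low genes were not detectable at this depth.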
